A study of Arabidopsis thaliana with 48 samples.

Results

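INO80-FL is an Arabidopsis thaliana line in which full-length INO80 was put back into the ino80 mutant, and its long-day seedlings were compared here with long-day seedlings of ino80 itself. The comparison rests on 4 of the 48 RNA-seq libraries, chosen by genotype and day length: INO80-FL repeats 1 and 2 and ino80 repeats 1 and 2, all from 11-day-old seedlings grown on MS plates with 16 h of light and 8 h of dark. Both groups carry the ino80 mutation, and they differ by the transgene. Col-0, the wild-type accession, with 2 long-day libraries, gives the reference level. For short days (8 h of light and 16 h of dark, 14-day-old seedlings) there were 4 libraries of the same genotypes in the same table and 4 more, repeats 3 and 4, in a second table that was normalised apart and is not pooled with the first. The promoter that drives the transgene, the mutant allele and the number of independent transformants are not given in the sources used here. The hour of harvest is not given either, nor whether the repeats were separate cultures. P-values therefore measure only spread between libraries. In the first table that spread was pooled over all 36 libraries, both day lengths included. These also cover the arp5, nfrkb1/2/3, uch1/2 and atx4/5;jmj24 mutants and lines with part of INO80. Whole seedlings were used, and in such bulk RNA fewer cells of a type and less RNA per cell cannot be told apart.

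INO80 is the motor subunit of a chromatin-remodelling complex found from yeast to plants. The complex uses ATP to slide and space nucleosomes, and it has been linked to the exchange of the histone variant H2A.Z, to transcription and to the repair of broken DNA. In Arabidopsis it is known for its part in homologous recombination, in flowering time and in growth under light.

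All levels are deposited values in normalised reads, in which 1 unit is worth about 1 read, and fold changes are INO80-FL over ino80 computed after adding 1 to each value and taking log2, so that changes of scarce transcripts come out too small. Library totals were 22653356 and 21539446 in INO80-FL, 20239756 and 20173677 in ino80 and 22641975 and 22426969 in Col-0. The 10 most abundant genes took 9.15 and 8.71% of the reads in INO80-FL, 8.68 and 8.92% in Col-0, and 6.1 and 6.01% in ino80. Log2 levels correlated at 0.9919 between the INO80-FL libraries, at 0.991 between the ino80 libraries and at 0.9785 to 0.9815 across the groups. A gene is called changed at a Benjamini-Hochberg adjusted p under 0.05 in limma.

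INO80 itself (AT3G57300, chr3:21199150-21207893, plus strand) was read first. It stood at 940.8 and 782.7 normalised reads in ino80, at 4955 and 4616 in INO80-FL and at 1582 and 1579 in Col-0. Both INO80-FL libraries were thus above every ino80 and Col-0 library, and the ino80 libraries kept a signal of INO80 below that of Col-0. The gene rose 5.57-fold from ino80 to INO80-FL (log2 fold change 2.48 ± 0.0956 SE, adjusted p = 3.9e-14), and INO80-FL stood 3.03-fold above Col-0 (log2 fold change 1.60, adjusted p = 2.9e-10). In short days INO80 also rose, by 2.34 in the first table and by 1.97 in the second on the log2 scale. INO80 overlaps EIF3E on the opposite strand, and since no source says whether counting used strand, reads of such overlapping pairs cannot be told apart. The same holds, beside pairs named below, for BAM6, EMB2423, COL2, LHCB2.3, PSAE-1, PSAE-2, AT3G54500, WRKY33, WRKY40 and PYK10, each with a gene on the opposite strand.

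Across the transcriptome 7891 of 25638 genes tested (30.8%) were called, 4189 of them higher in INO80-FL (16.3%) and 3702 lower (14.4%). Of these, 1504 (5.87%) changed at least 2-fold, 860 up (3.35%) and 644 down (2.51%). The median log2 fold change of all genes was 0, and in 16329 genes (63.7%) the libraries of the groups did not overlap. When every library was scaled to the same total, the median became -0.1, and the split of calls turned to 2813 higher and 5890 lower. Fold changes near that shift therefore take their direction from the scaling. When the fit used only these 4 libraries, with 2 residual degrees of freedom in place of 18, it called 2701 genes, and genes whose call ended there are named below.

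**Figure D1:**
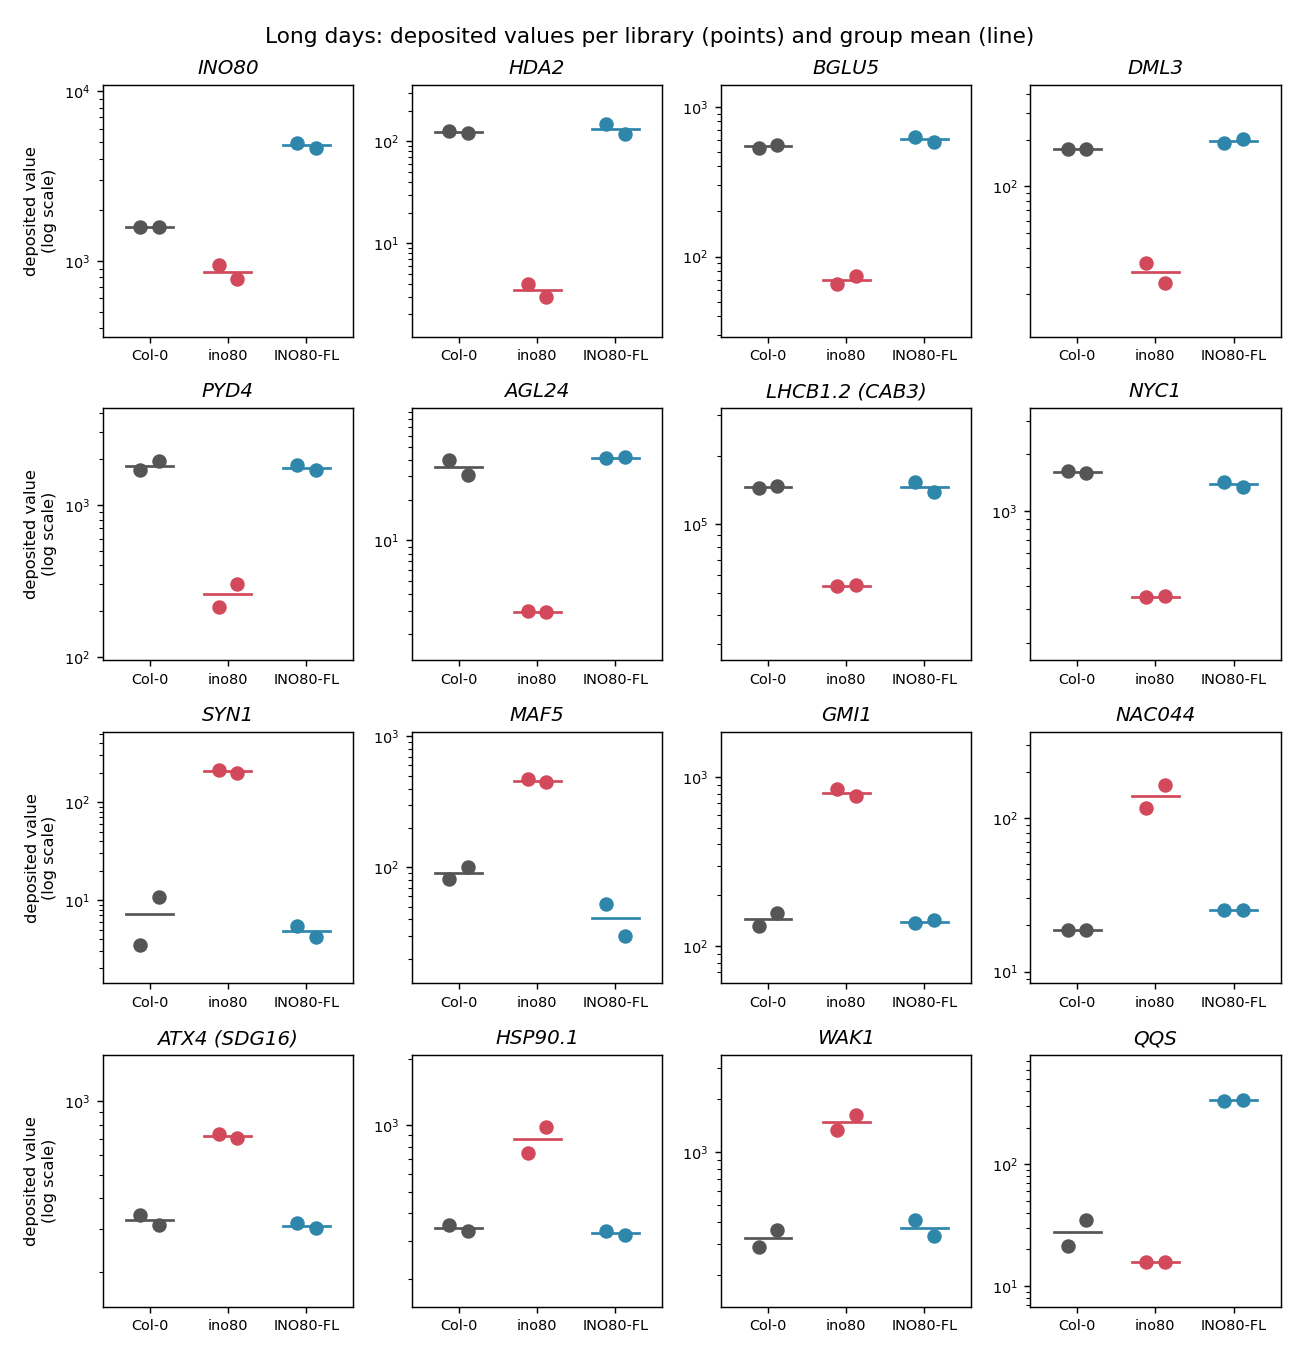
Deposited values (normalised reads, log axis) of 16 genes in the long-day libraries of Col-0, ino80 and INO80-FL. Each point is 1 library and each line a group mean. In all 16 panels both INO80-FL points lie on 1 side of both ino80 points. For genes from the 15 largest rises and falls the naming rule required this. INO80 (4955 and 4616 beside 1582 and 1579) and QQS (331 and 339 beside 21.16 and 34.83) are also far above Col-0.

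Among the genes that rose most, several were near silence in ino80. HDA2, a histone deacetylase, was at 3.955 and 2.941 in ino80, 146.9 and 119.2 in INO80-FL and 127.4 and 120.8 in Col-0. INO80-FL and Col-0 overlapped and ino80 lay far below both (log2 fold change 4.92 ± 0.74 SE, adjusted p = 2.1e-05). HDA2 overlaps FC1 on the other strand. EMB2423 had 8.893 and 8.838 in ino80 and 88.01 and 90.52 in INO80-FL, with Col-0 at 94.33 and 82.49. It rose by 3.19 on the log2 scale (adjusted p = 7.4e-08). BGLU5, of the beta-glucosidase family, went from 65.2 and 73.69 to 625.4 and 585.5, close to the 534.3 and 556.2 of Col-0. That is an 8.62-fold rise with little spread (log2 fold change 3.11 ± 0.145 SE, adjusted p = 1.3e-12).

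Other steep rises were in regulators and metabolic enzymes. NGA2, a transcription factor of leaf and flower shape, went from 17.81 and 9.789 in ino80 to 117.4 and 102.2 in INO80-FL (log2 fold change 2.96, adjusted p = 6.8e-08). NUDT8, a Nudix hydrolase, rose from 25.65 and 42.3 to 256.8 and 211.9 (2.79, adjusted p = 5.1e-06). PYD4, an aminotransferase assigned to pyrimidine breakdown, had 213.3 and 303.7 in ino80 and 1815 and 1686 in INO80-FL, against 1694 and 1931 in Col-0. For all of these the groups did not overlap, which the rule for naming the largest rises required. BAM6, of the beta-amylase family, rose 11.3-fold (adjusted p = 2.6e-06). ANNAT7, an annexin, and OTP84, a chloroplast RNA-editing factor, rose 7.87-fold and 6.44-fold, though the fit to only the 4 libraries did not call either.

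QQS, an orphan gene that lowers leaf starch, was the one among the 15 largest named rises that was also called against Col-0. Its levels were 15.81 and 15.71 in ino80, 21.16 and 34.83 in Col-0 and 331 and 339 in INO80-FL. The rescue line was thus 20-fold above the mutant (adjusted p = 5.4e-09) and 11.9-fold above Col-0 (adjusted p = 2.1e-06). In short days INO80-FL held 349.5 and 354.9 in the first table, beside 13.93 and 31.19 in ino80. In the second table it held 342 and 364.7, beside 88.89 and 108.3 in ino80 and 44.99 and 37.99 in Col-0. The rise over ino80 was 3.57-fold there. In long days the line with INO80 residues 335 to 1540 stood at 311.7 and 273.5, so levels above Col-0 were not particular to INO80-FL.

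Among the named genes that fell, SYN1 had the lowest log2 fold change of the 15 largest falls. SYN1, the meiotic cohesin subunit REC8, was at 213.5 and 198.4 in ino80, 5.476 and 4.23 in INO80-FL and 3.453 and 10.8 in Col-0. It fell 35.5-fold to the wild-type range (log2 fold change -5.15 ± 0.339 SE, adjusted p = 2.4e-10), and it overlaps AT5G05480 on the other strand. AtSPO22, a meiotic recombination protein, was at 74.15 and 56.91 in ino80 and at 11.99 and 7.427 in INO80-FL, against 8.824 and 9.86 in Col-0. It fell by 2.66 on the log2 scale (adjusted p = 2.3e-08). AGO9, an Argonaute known from ovules, held 30.63 and 30.44 in ino80 and 4.378 and 3.177 in INO80-FL, and fell 6.65-fold (adjusted p = 1.5e-05). PERK12, among the 15 largest falls and a proline-rich extensin-like receptor kinase, fell from 199.7 and 149.2 to 22.11 and 27.32 (log2 fold change -2.76, adjusted p = 1.4e-10).

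Genes for other parts of the chromatin machinery moved both ways, as did all genes tested, of which 16.3% rose and 14.4% fell. In the list for the INO80 complex 1 of 11 members tested rose, INO80 itself, and 3 fell. ARP6, 1 of these 3, belongs to the SWR1 complex but was counted in this list and not in that for H2A.Z and SWR1. A further 7 of the 18 names listed matched no gene and were not tested. RIN1, a RuvB-like ATPase of the complex, was at 666 and 684.6 in ino80 and 513.2 and 474.9 in INO80-FL (log2 fold change -0.45, adjusted p = 2.1e-05). Col-0 was at 516.4 and 483, so INO80-FL and Col-0 overlapped. TAF14, a YEATS-domain subunit, fell 2.16-fold from 73.11 and 77.6 to 28.84 and 40.93, a call that the 4-library fit did not make. ARP6, an actin-related protein of the SWR1 complex that deposits H2A.Z, differed by -0.24 (adjusted p = 0.0053), and its call ended without INO80-FL repeat 2, without ino80 repeat 1 and in the 4-library fit. In the list for H2A.Z and SWR1, 1 of 9 rose and 1 fell, with a median of 0, and leaving out 1 library gave 0 to 2 rises and 0 to 1 falls, and equal library totals 0 and 3.

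Of 16 tested members of the list for H3K4 and H3K36 methylation, 2 rose and 4 fell (median -0.14), against 16.3 and 14.4% of all genes. SDG16, also called ATX4, an H3K4 methyltransferase, had 735.2 and 704.2 in ino80, 317.6 and 302.2 in INO80-FL and 341.5 and 310.8 in Col-0. It fell 2.32-fold with groups well apart (log2 fold change -1.21 ± 0.0866 SE, adjusted p = 8.9e-10). SDG29, its close relative ATX5, fell from 484.2 and 496 to 365.6 and 307.7 (-0.55, adjusted p = 0.00014), and ATX2, of the same family, rose from 673 and 568.6 to 891.7 and 894.9 (0.53, adjusted p = 2.3e-05). Neither of these 2 was called by the 4-library fit. The atx4/5;jmj24 mutant is among the genotypes of the series.

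In the DNA methylation list 4 of 18 members rose and 7 fell (median -0.1), with 3 falls without INO80-FL repeat 1 and 3 without ino80 repeat 1. Of all genes tested 16.3% rose and 14.4% fell. The glycosylases that remove 5-methylcytosine from DNA were among the risers. DML3 had 31.64 and 23.54 in ino80, 190.4 and 204.2 in INO80-FL and 174.8 and 175.6 in Col-0. DML2 had 94.86 and 96.25 in ino80, 318.8 and 306.4 in INO80-FL and 272.6 and 275.4 in Col-0. Both rose well clear of the mutant, 7-fold for DML3 (adjusted p = 2.5e-09) and 3.25-fold for DML2 (adjusted p = 9.3e-08). NRPD1A, the large subunit of RNA polymerase IV, which starts the RNA-directed methylation pathway, was at 285.6 and 258.3 in ino80 and 181.5 and 188.4 in INO80-FL. It fell by 0.55 on the log2 scale (adjusted p = 0.0006), without a call in the 4-library fit.

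In the DNA damage response list 9 of 26 tested members fell in the rescue line, 17 were not called and none rose, against 16.3 and 14.4% of all genes, with a median log2 fold change of -0.30. At an unadjusted p under 0.05 limma gave 0 higher and 12 lower. GMI1, which acts in repair by homologous recombination, was at 846.9 and 770.9 in ino80, 137.5 and 142.1 in INO80-FL and 132.2 and 157.7 in Col-0. It fell 5.75-fold into the wild-type range (log2 fold change -2.52 ± 0.163 SE, adjusted p = 1.8e-10), and AT5G03735 overlaps it on the other strand. NAC044, a transcription factor that halts the cell cycle after damage, had 116.5 and 163.2 in ino80, 25.3 and 25.27 in INO80-FL and 18.69 and 18.66 in Col-0. It fell 5.28-fold (adjusted p = 8.6e-06).

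SOG1, the transcription factor that heads the plant damage response, stood at 252.9 and 290.8 in ino80 and 196.6 and 181.2 in INO80-FL. It fell by 0.52 on the log2 scale (adjusted p = 0.00029), with no call in the 4-library fit. AT4G19130, the replication protein RPA1E, fell 1.83-fold (adjusted p = 0.0089), a call that ended when ino80 repeat 1 was left out. The count of falling members lay between 5 and 9 over the 4 fits that leave out 1 library each, with 5 without ino80 repeat 1 and 6 without INO80-FL repeat 1, and it was 14 with equal library totals. In short days 2 members rose and 7 fell in the first table, and 0 and 4 in the second. GMI1 and NAC044 fell in both, GMI1 by 2.70 and 2.71 and NAC044 by 1.53 and 1.51 on the log2 scale in the first and second table.

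SOG1 binds a palindrome of CTT and AAG with 7 bases between them. The 250 bases before the annotated start of NAC044 hold a copy, and they are shown because NAC044 is the falling member of the damage list that has one. The sequence is from the RefSeq annotation of TAIR10.1 (chr3:228825-229074, plus strand), read 5′ to 3′ with the motif in capitals:
NAC044: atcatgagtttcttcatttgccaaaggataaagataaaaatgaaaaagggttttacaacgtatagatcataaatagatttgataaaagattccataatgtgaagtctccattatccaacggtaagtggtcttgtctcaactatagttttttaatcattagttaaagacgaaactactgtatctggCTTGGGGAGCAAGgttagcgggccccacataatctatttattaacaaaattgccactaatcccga
The motif lies 65 bases before the gene start. Both strands were searched, and 9.44% of the promoters of all genes tested hold it, as do 9.19% of those of genes at least 2-fold higher and 12.7% of those of genes at least 2-fold lower. In the DNA damage list 6 of 26 promoters hold it, and 1 of the 9 that fell, so most falling members have none in this window. A match here is a description of letters and not a measured binding site.

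Photosynthesis genes rose together. All 23 photosystem subunits tested rose, by 0.41 to 0.83 on the log2 scale (median 0.63). In the list for antenna proteins and Rubisco 20 of 22 genes rose and none fell (median 0.72). Beside these counts, 16.3% of all genes rose and 14.4% fell. CAB3, the chlorophyll-binding antenna protein LHCB1.2, was at 53720 and 54120 in ino80, 153000 and 139200 in INO80-FL and 144300 and 147900 in Col-0. It rose 2.71-fold and overlapped the wild type (adjusted p = 1.1e-08). LHCB2.3, of the same light-harvesting complex, went from 21490 and 18710 to 43360 and 39550 (2.07-fold, adjusted p = 7.1e-07). RBCS2B, a small subunit of Rubisco, went from 30410 and 26050 to 58490 and 50110, 1.92-fold (adjusted p = 1.9e-06). These families hold near-identical copies, so reads may be split between their members. CAB3 and RBCS2B were not called by the 4-library fit, with adjusted p of 0.058 and 0.068.

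PSAE-2 and PSAE-1, which encode the same stromal subunit of photosystem I, moved alike. PSAE-2 rose from 4935 and 4968 to 9129 and 8527, and PSAE-1 from 13550 and 13980 to 23590 and 22440. For both the INO80-FL libraries lay on either side of, or just above, those of Col-0 (log2 fold changes 0.83 and 0.74, adjusted p of 3.4e-08 and 8e-07). The photosynthesis lists depended on the scaling at their most abundant members. After quantile normalisation 11 of 22 antenna and Rubisco genes rose and 1 fell (median 0.19), 16 of 23 photosystem subunits rose (median 0.30), and PSBO1, the manganese-stabilising protein of photosystem II, turned from 0.70 to -0.1. With equal library totals 20 and 23 rose and 1 and 0 fell.

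Markers of mesophyll, the photosynthetic leaf tissue, moved with these genes: 7 of 8 rose (median 0.69), against 16.3% of all genes. After quantile normalisation 3 of 8 rose (median 0.06). Most of them are themselves photosynthesis genes. Their summed level was 791700 and 752900 in ino80, 1254000 and 1122000 in INO80-FL and 1243000 and 1249000 in Col-0. Their part in the rise of the photosynthesis lists was not tested.

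The promoters of 2 antenna and Rubisco genes and of the clock gene CCA1 are printed because they carry light-responsive elements, searched on both strands in the same 250-base window. LHCB6 and RBCS2B hold the G-box CACGTG and the I-box GATAAG, and CCA1 holds the G-box. They come from the RefSeq annotation of TAIR10.1, on the gene's strand, with motifs in capitals: LHCB6 (chr1:5447881-5448130, minus strand), RBCS2B (chr5:15382072-15382321, minus strand) and CCA1 (chr2:19245341-19245590, plus strand).
LHCB6: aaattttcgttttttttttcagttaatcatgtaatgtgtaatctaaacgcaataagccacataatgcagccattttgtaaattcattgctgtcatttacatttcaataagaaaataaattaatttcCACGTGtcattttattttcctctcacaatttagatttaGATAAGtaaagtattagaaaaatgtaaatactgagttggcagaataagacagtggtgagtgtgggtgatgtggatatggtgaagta
RBCS2B: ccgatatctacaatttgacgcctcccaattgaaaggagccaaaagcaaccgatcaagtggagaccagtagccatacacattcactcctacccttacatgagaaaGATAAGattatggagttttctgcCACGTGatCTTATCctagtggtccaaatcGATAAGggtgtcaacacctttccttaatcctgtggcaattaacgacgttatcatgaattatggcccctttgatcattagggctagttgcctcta
CCA1: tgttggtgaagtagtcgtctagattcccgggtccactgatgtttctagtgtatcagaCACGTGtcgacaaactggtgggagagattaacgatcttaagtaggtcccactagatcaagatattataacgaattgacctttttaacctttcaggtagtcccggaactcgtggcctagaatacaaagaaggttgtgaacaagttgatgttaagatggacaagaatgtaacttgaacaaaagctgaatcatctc
LHCB6, chosen for its motifs after its values were seen, encodes a minor antenna protein of photosystem II. It stood at 40920 and 42010 in ino80 and 67480 and 62580 in INO80-FL (log2 fold change 0.65, adjusted p = 3.4e-05). The G-box is in 27.3% of antenna and Rubisco promoters, 13% of photosystem promoters and 38.1% of clock promoters, against 6.76% of all genes tested. The I-box is in 27.3, 21.7 and 23.8% of the same lists, against 12.4% of all. Among genes that changed at least 2-fold the G-box is in 7.91% of those higher and 9.63% of those lower, and the I-box in 15.2 and 12.1%.

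Pigment metabolism rose less evenly. In chlorophyll synthesis 9 of 19 genes rose and 2 fell (median 0.25). The falls were not called in any of the 4 fits that leave out 1 library, and the rises were 5 without INO80-FL repeat 1, 6 without ino80 repeat 1 and 5 with equal library totals. In chlorophyll breakdown and senescence 8 of 14 rose and 1 fell (median 0.51). Beside both lists, 16.3% of all genes rose and 14.4% fell. PORA, a protochlorophyllide reductase, was at 14.82 and 16.7 in ino80 and 46.47 and 61.96 in INO80-FL (3.27-fold, adjusted p = 0.001). NYC1, the chlorophyll b reductase that begins chlorophyll b breakdown, was at 348.8 and 353.6 in ino80, 1420 and 1343 in INO80-FL and 1621 and 1580 in Col-0. It rose 3.93-fold with a very small spread (adjusted p = 3.4e-12). SEN1, a marker of dark and senescence responses, went from 401.2 and 446.9 to 1615 and 1167 (3.24-fold, adjusted p = 1.1e-06).

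**Figure D2:**
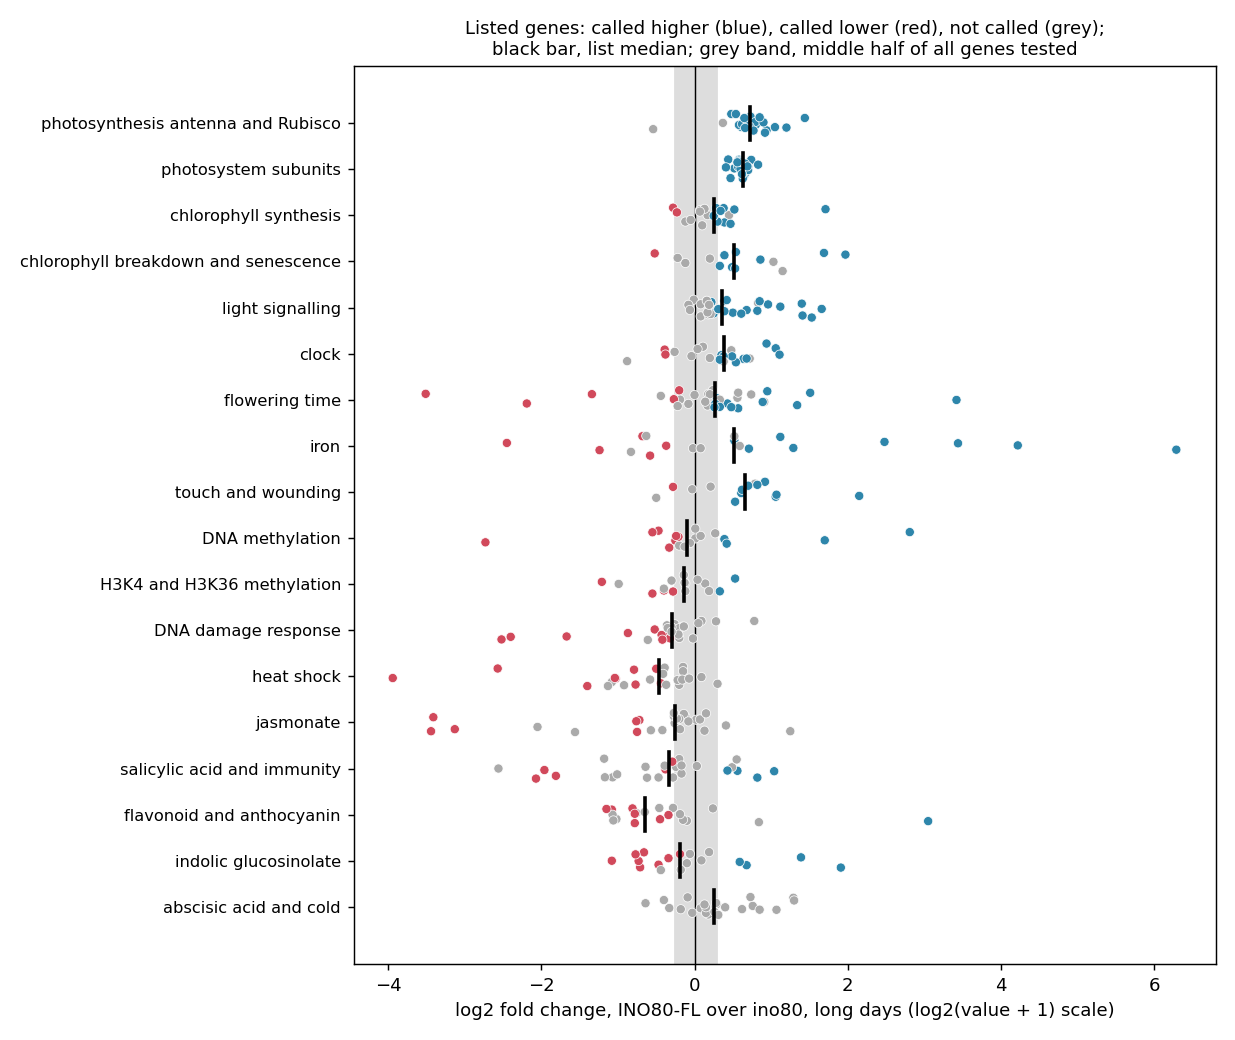
Log2 fold changes of INO80-FL over ino80 in long days for the members of 18 gene lists. Each point is 1 gene, coloured by its limma call, black bars are list medians and the grey band spans the inner quartiles of all genes tested; the photosystem subunits all lie between 0.41 and 0.83, while the DNA damage and heat shock lists have no called gene to the right.

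Light signalling followed photosynthesis. Of 30 members tested 17 rose and none fell (median 0.36), against 16.3 and 14.4% of all genes. With equal library totals 12 rose and 1 fell. Without INO80-FL repeat 1 the rises were 11. HB-2, a homeodomain gene induced by shade, had 1000 and 953.6 in ino80, 3073 and 3092 in INO80-FL and 1702 and 2349 in Col-0. It rose 3.15-fold (adjusted p = 1.4e-08), and the INO80-FL libraries lay above those of Col-0 without a call (adjusted p = 0.099). HFR1, which restrains shade growth, went from 185.7 and 217.1 to 658.9 and 517.3 (2.9-fold, adjusted p = 3.5e-06). PIF7, a phytochrome-interacting factor of the shade response, went from 389.4 and 316.1 to 995.6 and 861.5 (2.63-fold, adjusted p = 4.4e-08), with AT5G61260 on the other strand.

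Clock genes rose in 10 of 21 cases and fell in 2 (median 0.38), against 16.3 and 14.4% of all genes. Leaving out 1 library gave 7 to 8 rises and 1 to 3 falls, and equal library totals gave 7 and 3. CCA1, a morning repressor of the clock, was at 1357 and 1247 in ino80, 2637 and 2352 in INO80-FL and 2556 and 2127 in Col-0 (1.91-fold, adjusted p = 7.5e-06). RVE8, a morning activator, went from 386.4 and 379.1 to 839.7 and 762.4, 2.09-fold (adjusted p = 8.7e-08). Its coactivator AT3G54500, also called LNK2, went from 4230 and 3448 to 8638 and 7880, 2.16-fold (adjusted p = 2.7e-08). All INO80-FL libraries of these 3 genes were above all ino80 libraries. With the harvest hour not given, 1 time of day was sampled per library and the phase of the rhythm was not measured.

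Flowering-time genes moved in both directions, 12 of 32 up and 5 down (median 0.26), against 16.3 and 14.4% of all genes tested. The share of falls was thus near that of all genes. The rises were 6 without INO80-FL repeat 1, 7 without ino80 repeat 2 and 7 with equal library totals, and the falls were 3 without INO80-FL repeat 2. MAF5, a floral repressor of the FLC family, was at 473.4 and 445.9 in ino80, 52.31 and 29.71 in INO80-FL and 81.64 and 100.6 in Col-0. It fell 11.4-fold (log2 fold change -3.51 ± 0.252 SE, adjusted p = 9.7e-10). FLC, the central repressor, stood lower, at 33.59 and 34.38 in ino80 and 17.22 and 2.248 in INO80-FL. Its value of -2.19 (adjusted p = 0.0028) rested on INO80-FL repeat 2, without which it was -0.94 (adjusted p = 0.17), and it was not called by the 4-library fit. AGL24, a floral promoter, rose from 2.964 and 2.945 to 40.72 and 42.1, beside 39.4 and 30.9 in Col-0 (10.7-fold, adjusted p = 5e-07). COL2, a relative of CONSTANS, rose from 454.6 and 394.7 to 1288 and 1128 (2.84-fold, adjusted p = 8.2e-08).

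Floral organ markers were checked beside these. Of 13 tested, 2 rose and 2 fell, shares near those of all genes (16.3 and 14.4%). Their summed level was 909.2 and 807.3 in ino80, 418.7 and 494.3 in INO80-FL and 411.5 and 381.3 in Col-0. SEP3, a floral organ identity gene, went from 782.7 and 676.6 to 262.2 and 314.5 (-1.34, adjusted p = 0.00064) and made up most of that sum. PI, which specifies petals and stamens, went from 47.43 and 48.13 to 14.33 and 15.78 (-1.60, adjusted p = 0.00063). SEP4 went the other way, from 15.77 and 30.51 to 94.86 and 113.5 (4.56-fold, adjusted p = 2.9e-06), with no call in the 4-library fit. The part of these markers in the changes of meiotic and flowering genes was not tested.

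None of 24 heat shock genes rose and 9 fell (median -0.47), against 16.3 and 14.4% of all genes. At an unadjusted p under 0.05 in limma the counts were 0 and 12, and with equal library totals also 0 and 12. Leaving out 1 library gave 6 to 8 falls. HSP90.1, a cytosolic chaperone, was at 748.9 and 984.3 in ino80, 331.9 and 318 in INO80-FL and 354.8 and 330.5 in Col-0 (2.64-fold lower, adjusted p = 3.1e-06). AT5G48570, the FKBP-type chaperone ROF2, fell from 742 and 866.4 to 378.4 and 401 (-1.04, adjusted p = 8.8e-08). HSP17.6II, a small heat shock protein, was at 37.58 and 25.49 in ino80 and 1.107 and 1.058 in INO80-FL, about 1 read in each rescue library, so its log2 value of -3.94 (adjusted p = 0.00014) depends on the pseudocount. HSP70 fell 2.04-fold, from 1889 and 2368 to 1063 and 1011 (adjusted p = 0.00022), with no call in the 4-library fit. The heat shock element, searched as GAA, TTC and GAA with 2 bases between each, is in 5 of 24 promoters of the list and 0 of the 9 that fell, against 0.398% of all.

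Of the jasmonate list none of 25 rose and 6 fell (0 and 8 at an unadjusted p under 0.05 in limma). In the salicylic acid and immunity list 4 of 26 rose and 5 fell, shares near those of all genes (16.3 and 14.4%). For the latter, leaving out 1 library gave 1 to 3 rises (1 without INO80-FL repeat 1) and 3 to 4 falls. Equal library totals gave 2 and 9, and the second short-day table gave 6 and 0, against 5.74 and 5.18% of all genes there. CBP60G, a calmodulin-binding regulator of salicylic acid synthesis, rose from 159.1 and 143.4 to 337.1 and 289.7 (2.06-fold, adjusted p = 0.0047), a call that ended without INO80-FL repeat 1 (adjusted p = 0.055). The defensin PDF1.2b was at 57.31 and 58.93 in ino80 and 7.623 and 4.254 in INO80-FL (8.78-fold lower, adjusted p = 0.00014). It has close copies that may share its reads. SARD1, a transcription factor that drives salicylic acid synthesis, was at 116.6 and 134.6 in ino80 and 30.72 and 27.41 in INO80-FL (4.21-fold lower, adjusted p = 7e-05), with GIP2 on the other strand. BGL2, the glucanase PR2, fell from 411.2 and 318.1 to 96.62 and 87.46 (adjusted p = 0.00078). For PDF1.2b, SARD1 and BGL2 the INO80-FL libraries lay below both mutant libraries. WAK1, a wall-associated receptor kinase, fell from 1328 and 1625 to 408.4 and 332 (3.98-fold, adjusted p = 8.6e-05), and PLA2A, a lipid acyl hydrolase of the defence response, from 223.3 and 240.7 to 56.76 and 36 (adjusted p = 0.0022).

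The touch and wounding list went the opposite way, with 9 of 14 genes higher and 1 lower (median 0.66), against 16.3 and 14.4% of all genes. WRKY40, a transcription factor of early defence, was at 95.88 and 83.45 in ino80 and 424.1 and 376 in INO80-FL (4.43-fold, adjusted p = 0.0042). The Col-0 libraries stood at 122.3 and 400.8, so wild type alone spanned most of that range. STZ, a zinc finger repressor, rose from 260.8 and 283.9 to 546.8 and 593.6 (2.09-fold, adjusted p = 0.0033), and WRKY33 from 1190 and 1246 to 2422 and 2198 (1.89-fold, adjusted p = 0.0012). The rises were 3 without INO80-FL repeat 1, 5 without ino80 repeat 1 and 5 with equal library totals.

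Glucosinolate genes, for the sulphur-containing defence compounds of the cabbage family, were split. In the indolic list 4 of 18 rose and 8 fell, and in the aliphatic list 4 of 18 rose and none fell. Of all genes tested 16.3% rose and 14.4% fell. The indolic falls were 4 without INO80-FL repeat 2 and 5 without ino80 repeat 2, and with equal library totals the aliphatic list had 2 rises and 2 falls. ESM1, which favours isothiocyanates on glucosinolate breakdown, was at 5722 and 4384 in ino80, 19360 and 18200 in INO80-FL and 22320 and 23910 in Col-0 (3.75-fold, adjusted p = 4.1e-08). TGG2, a myrosinase that cleaves glucosinolates, rose from 10170 and 9529 to 27530 and 24300 (2.63-fold, adjusted p = 1.7e-09). PEN3, a transporter of defence compounds, fell from 10660 and 11200 to 6585 and 6240 (-0.77, adjusted p = 5.9e-05). In the flavonoid and anthocyanin list 1 of 21 rose and 7 fell (median -0.65), with 1 fall without INO80-FL repeat 1 and 1 without ino80 repeat 2.

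Of 19 iron genes tested, 8 rose and 5 fell (median 0.52), against 16.3 and 14.4% of all genes. The counts were 5 and 3 without INO80-FL repeat 1 and likewise without ino80 repeat 2, which left the falls near the share of all genes. BHLH101, a transcription factor that switches on iron uptake, was listed at 0 and 0.9849 in ino80 and at 154.9 and 77.43 in INO80-FL, with Col-0 at 53 and 13.84. With the mutant at or below about 1 read, its log2 value of 6.29 (adjusted p = 3.7e-05) is set by the pseudocount, and the gene overlaps GLU1 on the other strand. Its relative BHLH100 had 15.83 and 7.825 in ino80 and 335.5 and 151.5 in INO80-FL (log2 fold change 4.22 ± 1.11 SE, adjusted p = 0.0053). That call ended without INO80-FL repeat 1 (adjusted p = 0.068), without ino80 repeat 2 (adjusted p = 0.055) and in the 4-library fit. bHLH39, of the same clade, had 32.63 and 23.54 in ino80 and 199.1 and 126.8 in INO80-FL (2.48, adjusted p = 0.0011), not called in the 4-library fit.

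On the falling side of iron, NAS2, which makes the metal chelator nicotianamine, was at 644.3 and 685.6 in ino80, 111.3 and 130.4 in INO80-FL and 174.3 and 140.9 in Col-0. It fell 5.48-fold (adjusted p = 8.7e-09). FRO5, of the ferric and copper reductase family, fell 7.08-fold, from 537.7 and 388.8 to 48.97 and 82.84 (adjusted p = 1.4e-07), with no call in the 4-library fit.

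In the nitrate and nitrogen list 4 of 22 genes rose and 6 fell, with 2 rises without INO80-FL repeat 1, 2 without ino80 repeat 2 and 2 with equal library totals. Across all genes tested 16.3% rose and 14.4% fell. NRT2:1, the main high-affinity nitrate transporter of roots, was at 395.3 and 364.3 in ino80, 92.82 and 122.9 in INO80-FL and 74.16 and 107 in Col-0 (3.53-fold lower, adjusted p = 0.00057). WR3, its partner NRT3.1, was at 1009 and 1010 in ino80, 346.7 and 394.6 in INO80-FL and 401.3 and 424.5 in Col-0 (2.72-fold lower, adjusted p = 6.3e-08). INO80-FL overlapped Col-0 for NRT2:1 and lay just below it for WR3. In the phosphate starvation list 4 of 20 rose and 3 fell, shares near those of all genes, with 2 to 3 rises when 1 library was left out (2 without INO80-FL repeat 2). PEPC1, a phosphatase induced by low phosphate, rose from 40.49 and 51.11 to 259.5 and 261.1 (5.62-fold, adjusted p = 0.0022). SQD2, which makes sulpholipid in place of phospholipid, rose from 1268 and 1299 to 3118 and 3273 (2.49-fold, adjusted p = 0.00068).

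The hormone lists are set against all genes tested, of which 16.3% rose and 14.4% fell in long days. Of 33 auxin genes 8 rose and 7 fell. The rises were 2 without INO80-FL repeat 1, 2 without ino80 repeat 1 and 5 without ino80 repeat 2, the falls 4 to 5 in the 4 fits that leave out 1 library, and equal library totals gave 5 and 11. GH3.3, an enzyme that conjugates auxin to amino acids, was at 617.7 and 552.9 in ino80, 149.9 and 174.6 in INO80-FL and 101.1 and 96.64 in Col-0 (3.6-fold lower, adjusted p = 0.00017), and BRU6 of the same family fell 2.06-fold (adjusted p = 5.7e-06). EXPA1, a wall-loosening expansin in the gibberellin and brassinosteroid list (4 of 21 up and 3 down, or 1 to 2 down when 1 library was left out), rose from 5260 and 4781 to 10080 and 8765 (1.87-fold, adjusted p = 1.1e-05). WOL, a cytokinin receptor, fell from 792.5 and 806.4 to 599.3 and 610.6 (-0.40, adjusted p = 0.00014) in a list with 2 of 18 up and 1 down. Of 20 ethylene genes 5 rose and 3 fell. Leaving out 1 library gave 1 to 4 rises and 0 to 2 falls (1 and 0 without ino80 repeat 1), and equal library totals turned the split to 2 and 5. None of 23 genes for abscisic acid and cold was called by limma in long days (median 0.26), where 2 were higher and 1 lower at an unadjusted p under 0.05. In short days 6 rose and 1 fell in the first table, against 15 and 12.2% of all genes. In the second 9 rose and none fell, against 5.74 and 5.18%.

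The lists here are set against all genes tested, of which 16.3% rose and 14.4% fell. Of 24 starch genes 5 rose and 4 fell, shares near those. Starch rises were 2 without INO80-FL repeat 1, starch falls were 2 without INO80-FL repeat 2 or ino80 repeat 2, and equal library totals gave 2 and 7. Of 14 histone genes 3 rose and none fell, with 0 rises without ino80 repeat 1, 4 without INO80-FL repeat 1, and 1 rise and 2 falls with equal library totals. Of 29 cell cycle genes 1 rose and 3 fell. The cell cycle falls were 1 without INO80-FL repeat 1 or ino80 repeat 2, 7 without INO80-FL repeat 2 and 8 with equal library totals. Of 19 genes for dark and sugar starvation 3 rose and 2 fell, with 1 rise without INO80-FL repeat 1 or ino80 repeat 1. In the thalianol and marneral clusters, which make root triterpenes, 2 of 6 rose, or 1 to 3 when 1 library was left out.

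Cell type markers were read in the same libraries. Of 12 seed markers 0 rose and 8 fell (median -3.33), against 16.3 and 14.4% of all genes. The falls were 1 to 5 when 1 library was left out (1 without INO80-FL repeat 1, 2 without INO80-FL repeat 2). Their summed level was 872.7 and 2407 in ino80, 60.38 and 54.79 in INO80-FL and 34.43 and 67.25 in Col-0. The ino80 libraries thus differed from each other by more than the INO80-FL libraries did, and in short days a single ino80 library was high, at 1476 beside 54.41. CRU3, a seed storage protein, was at 351.4 and 1169 in ino80 and at or near 1 read or below in INO80-FL. Its call (adjusted p = 0.014) ended when INO80-FL repeat 1, INO80-FL repeat 2 or ino80 repeat 2 was left out.

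Root markers summed to 91530 and 87660 in ino80, 49230 and 46150 in INO80-FL and 58930 and 47050 in Col-0. PYK10, a root beta-glucosidase, supplied most of this, falling from 79610 and 77540 to 38890 and 36210 (2.09-fold, adjusted p = 4.2e-06). Of 24 root markers 5 fell and 2 rose, with 3 falls without INO80-FL repeat 1. Beside this and the next counts, 16.3% of all genes rose and 14.4% fell. Guard cell markers summed to 2479 and 2380 in ino80 and 3846 and 3543 in INO80-FL. Of these markers 3 of 11 were higher, among them KAT1, a guard cell potassium channel (2.42-fold, adjusted p = 1.2e-06). Epidermis had 3 of 11 higher, vasculature 1 of 11 higher and 2 lower, and shoot meristem 1 of 10 higher and 3 lower, with 0 to 3 higher calls for vasculature and 0 to 2 lower calls for meristem when 1 library was left out. Of 4 pollen markers limma called 0, and 0 at an unadjusted p under 0.05. The part of root, seed and mesophyll tissue in the changes of nitrate transporters, storage proteins and photosynthesis genes was not tested.

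**Figure D3:**
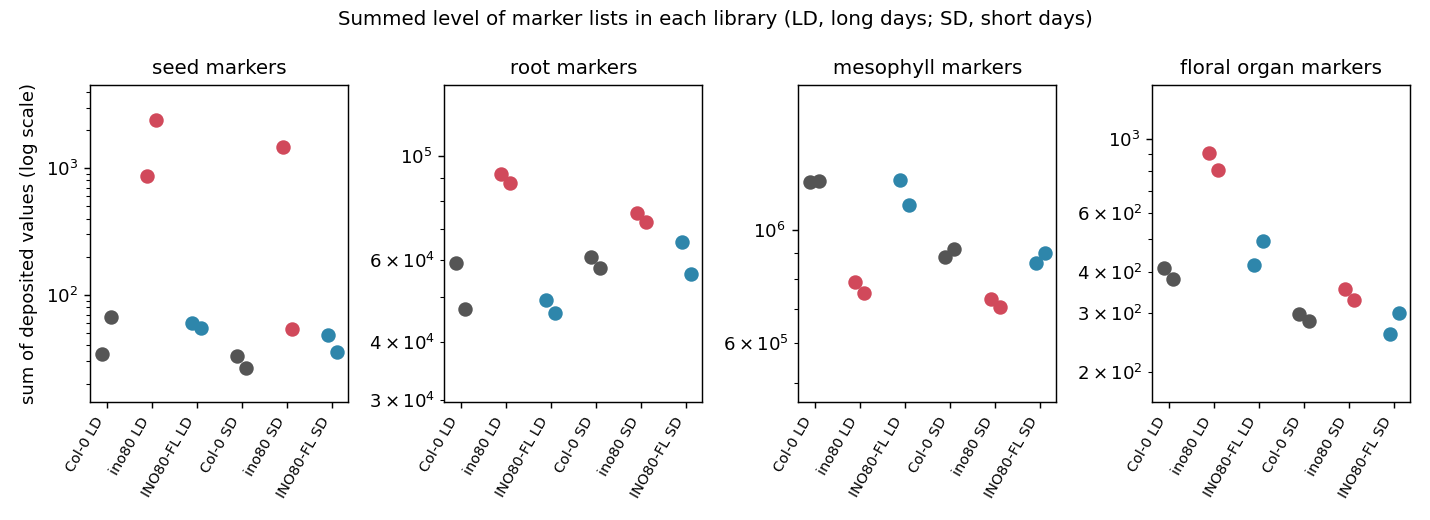
Summed deposited values (normalised reads, log axis) of 4 marker lists in the first table, 1 point per library. In long days the seed, root and floral organ sums are higher in both ino80 libraries than in INO80-FL and Col-0, and the mesophyll sum is lower.

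How far the rescue line went back towards wild type was read with genes chosen in libraries that the long-day comparison does not share. Short-day ino80 and Col-0 libraries of the second table differed in 3424 of 24458 genes (14%), 1661 higher in the mutant (6.79%) and 1763 lower (7.21%). Of the 1661 genes higher in the mutant, 924 (55.6%) fell in long-day INO80-FL and 40 (2.41%) rose, with a median of -0.43. Of the 1758 mutant-low genes that were tested in long days, 1208 (68.7%) rose and 23 (1.31%) fell, with a median of 0.55. Against this, 16.3% of all genes rose and 14.4% fell. In all, 2132 genes moved opposite to the mutant's change, and 987 did so in the 4-library fit.

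**Figure D4:**
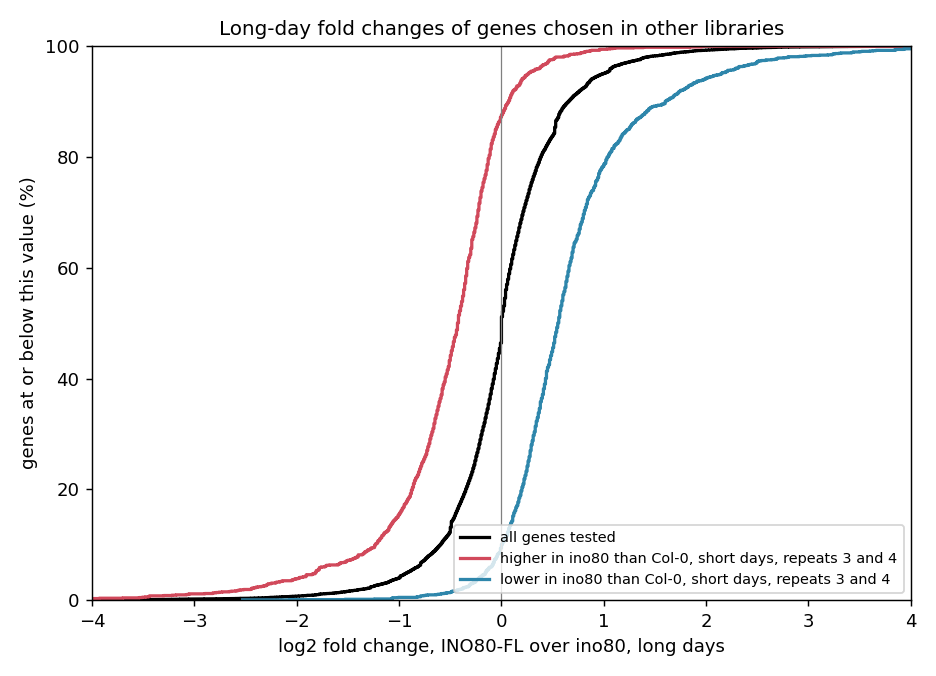
Cumulative share of genes (%) against the long-day log2 fold change of INO80-FL over ino80, for all genes tested and for genes called between ino80 and Col-0 in short days, repeats 3 and 4. The curve of genes higher in the mutant lies left of all genes (median -0.43) and that of genes lower in the mutant lies right (median 0.55).

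Set directly against Col-0 in long days, INO80-FL differed in 31 of 25638 genes (0.121%), 10 higher (0.039%) and 21 lower (0.0819%). The count was 160 when only the INO80-FL and Col-0 libraries entered the fit, 16 without Col-0 repeat 1 and 13 without INO80-FL repeat 2. The genes named here were chosen after their values were seen. Among the higher ones beside INO80 and QQS, AT5G24240 stood at 31.84 and 29.68 in Col-0, 238.2 and 225.9 in ino80 and 858.5 and 810.7 in INO80-FL. It was thus above wild type in the mutant and higher still in the rescue line (log2 fold change over Col-0 4.72, adjusted p = 5.6e-09).

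Some differences from wild type were shared with the mutant. ACR1, an ACT-domain repeat protein, was at 371.6 and 389.4 in Col-0, 29.68 and 17.63 in ino80 and 40.42 and 27.51 in INO80-FL. The mutant and rescue libraries overlapped (log2 fold change 0.52, adjusted p = 0.15), and INO80-FL stayed 11.1-fold below Col-0 (adjusted p = 2.2e-08). AT5G63680 showed the same at higher levels, with 1141 and 1126 in Col-0, 501 and 522.5 in ino80 and 487.1 and 484.3 in INO80-FL. AT4G16442, also called CASPL2B1, was at 281.5 and 295 in Col-0, 27.64 and 39.33 in ino80 and 47.46 and 56.76 in INO80-FL, a partial rise from the mutant (0.64, adjusted p = 0.0083). NRT1.1, a nitrate transporter and sensor, was below ino80 and Col-0 in long-day INO80-FL, at 5330 and 5423 beside 7588 and 7045 in ino80 and 8137 and 7466 in Col-0. This was not particular to INO80-FL. The line with INO80 residues 335 to 1540 was at 5694 and 5299, and that with residues 1 to 550 at 6179 and 5914. In the first short-day table NRT1.1 in INO80-FL was not below ino80 and Col-0, with 6695 and 7010 beside 6114 and 6005 in ino80 and 7268 and 6073 in Col-0. The day-length difference was called in limma (-0.62, adjusted p = 0.0068). FRO4, a copper and ferric reductase, was in long days at 439.6 and 411.7 in INO80-FL beside 737.3 and 565.6 in ino80 and 902.6 and 708.6 in Col-0. The line with residues 335 to 1540 was lower still, at 367 and 319.2, and that with residues 1 to 550 stood at 655.7 and 570.2. In the first short-day table FRO4 in INO80-FL (531.6 and 562.6) overlapped ino80 (454 and 550.7) and Col-0 (600.9 and 515.2). Its day-length difference was also called in limma (-0.73, adjusted p = 0.021).

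In short days the same genotype comparison called 6966 of 25638 genes (27.2%) in the first table and 2672 of 24458 (10.9%) in the second. The first split into 3838 higher (15%) and 3128 lower (12.2%), and the second into 1405 higher (5.74%) and 1267 lower (5.18%). Day length and age cannot be told apart, as the short-day seedlings were 3 days older. Of 3838 genes higher in short days in the first table, 2165 (56.4%) rose in long days and 103 (2.68%) fell, and of 3128 lower genes 1470 (47%) fell and 66 (2.11%) rose. The second table gave 931 (66.3%) risers and 18 (1.28%) fallers in long days among 1404 genes higher there, and 766 (60.5%) fallers and 25 (1.97%) risers among 1267 lower there. These short-day libraries are not among the long-day ones. The model fitted to the first table does share its estimate of spread between the day lengths.

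The size of the response differed between the day lengths, in the first table, for 2035 genes (7.94%), with 926 more positive in long days (3.61%) and 1109 more negative (4.33%). That count was 764 when only the 8 libraries compared entered the fit and 943 without the first ino80 short-day repeat. LTP4, a lipid transfer protein, rose in long days from 40.47 and 60.97 to 197.8 and 191.6, and fell in short days from 1923 and 1571 to 476.4 and 489.5. The difference in log2 response was 3.79 ± 0.39 SE (adjusted p = 1.6e-05), and in the second table LTP4 also fell in short days (-1.85, adjusted p = 0.029). PYD4 rose by 2.78 in long days and stood at 0.09 in the first short-day table, where ino80 had 681.1 and 560.2 and INO80-FL 660.4 and 655.6 (difference 2.68, adjusted p = 0.00013). In the second table it rose by 1.15 (adjusted p = 0.024), and the difference between the short-day tables was not tested.

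CAB3 rose by 1.44 in long days and by 0.55 in short days (difference 0.89, adjusted p = 0.0032), and RBCS2B by 0.94 against -0.06 (difference 1.00, adjusted p = 0.00092). Antenna and Rubisco genes rose in 12 of 22 cases and fell in 1 in the first short-day table, against 15 and 12.2% of all genes. In the second 13 of 22 rose and 2 fell, against 5.74 and 5.18%. In long days 20 of 22 rose and none fell, against 16.3 and 14.4%. NYC1 rose by 1.97 in long days and by 2.69 in the first short-day table, and it fell by 0.58 in the second, where ino80 stood at 8147 and 8529 and INO80-FL at 5486 and 5692. BHLH100 and bHLH39 rose in long days and in the second short-day table (4.98 and 2.34), while the first short-day table gave -0.83 and -1.42 without a call. For GMI1, HDA2 and PERK12 no difference between the day lengths was called in limma: GMI1 had -2.52 and -2.70 (difference 0.18, adjusted p = 0.71), HDA2 4.92 and 4.70 (0.21, adjusted p = 0.95) and PERK12 -2.76 and -2.81 (0.05, adjusted p = 0.95).

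**Figure D5:**
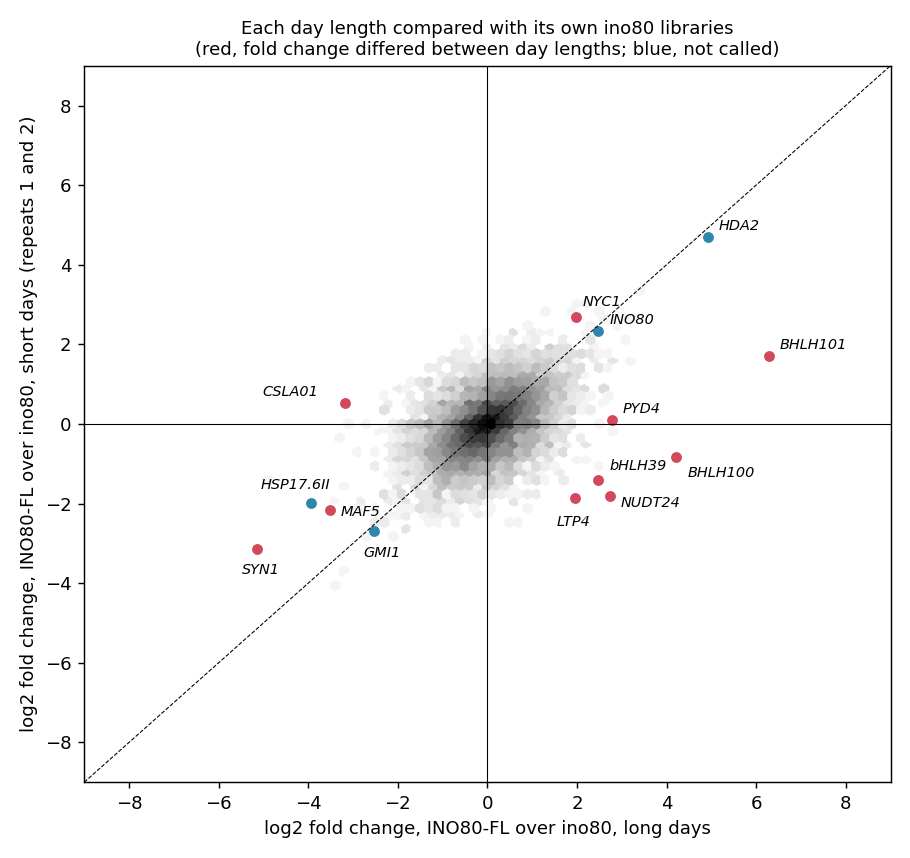
Log2 fold changes of INO80-FL over ino80 in long days (horizontal) and in short days, repeats 1 and 2 (vertical), for all genes tested (grey density) and named genes. Red points differed between the day lengths in limma and blue points were not called; HDA2 (4.92 and 4.70) lies near the diagonal and LTP4 (1.95 and -1.85) lies across the axis.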

How the data were processed

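RNA was extracted with Trizol from whole seedlings and sequenced as single-ended 50-bp reads, per the labels. Reads were aligned with HISAT2 2.2.0 to TAIR10, and edgeR (version not stated) was used, per the submitters' processing notes. The deposited values are a signal: normalised read values per locus that are not whole numbers, in 2 tables made apart, of 36 and of 12 libraries over 32548 loci, 2 libraries per group. Annotation, counter and strand setting are not given in the sources used here. Since the values are not counts, the count model first planned was not used. Values were tested as log2(value + 1) with limma 3.58.1 (trend) in R 4.3.3, with 1 mean for each of 18 groups (18 residual degrees of freedom), or of 6 groups in the second table (6 degrees of freedom). Genes that reached 1 in fewer than 2 libraries were dropped, which left 25638 and 24458 genes. P-values were adjusted by Benjamini-Hochberg over all genes tested, at 0.05.

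Named genes were the 15 largest rises and 15 largest falls among called genes with a symbol, a mean of at least 50 in a group, groups apart and a value that moved by less than 1.5 times without any 1 library; the 6 largest differences between day lengths; and the 4 largest changes among the called members of each list with a mean of at least 20, or the most abundant members where none was called. Genes outside this rule are said to be so where named. Members and lists were chosen with earlier results of these data known. Gene names, coordinates and promoters come from RefSeq TAIR10.1. The fit was tested on simulated data of 26187 genes, of which 50 were changed by 0.5, 100 by 1 and 50 by 2 on the log2 scale. There 75 of 231 calls were false, more than the threshold of 0.05 allows, and 65 of these fell on genes with a mean below 5 in both groups. Far fewer genes were changed than were called in the real data, so this share of false calls does not carry over. In the long-day comparison 187 of 7891 calls concern genes below a mean of 5 in both groups, and those calls are to be read with the most care. No gene at such levels was changed in the simulation, so it cannot tell how many of them are false. No 2 replicate columns held equal values for any gene above 0.

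Alternatives tried were pseudocounts of 0.5 and 4, other filters, quantile normalisation, equal library totals, voom weights, a replicate block, fits to fewer groups and leaving out each library.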

Additional observations from a re-analysis of the deposited data

Results flagged for a closer look

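The response to INO80-FL differed between long days and short days, by a test of the difference itself, for 2035 genes of the first table. Among genes named here the differences (long-day minus short-day log2 fold change) were as follows. Larger in long days were BHLH100 by 5.05, BHLH101 by 4.6, NUDT24 by 4.54, bHLH39 by 3.9, LTP4 by 3.79 and PYD4 by 2.68. The floral gene PI (1.82), the shade gene HB-2 (1.36), DML3 (1.21), BGLU5 (1.08) and TGG2 (1.06) also had positive differences. So did the photosynthesis genes RBCS2B (1.00), CAB3 (0.89), LHCA1 (0.66), PSAE-1 (0.43) and PSAE-2 (0.42), the clock genes RVE8 (0.75) and AT3G54500 (0.73), and the marker genes KAT1 (0.96) and CLV1 (0.46). Negative differences were found for CSLA01 (-3.68), PDF1.2b (-2.88), SYN1 (-2.02), RNS1 (-1.81), GH3.3 (-1.58), MAF5 (-1.34), HSP70 (-1.12), NYC1 (-0.71), PYK10 (-0.69), PEN3 (-0.59), RIN1 (-0.42) and ARP6 (-0.34). FRO4 (-0.73) and NRT1.1 (-0.62), named after their values were seen, also had negative differences. A positive difference for PI goes with a deeper fall in short days, since PI fell in both.

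CSLA01, of the cellulose-synthase-like family, was at 11.63 and 174.4 in the long-day ino80 libraries and 2.309 and 7.308 in INO80-FL, so its difference rests on ino80 repeat 2. NUDT24 had 10.45 and 4.601 in short-day ino80 and 0.02005 and 4.132 in INO80-FL, at or below a few reads. The part of seedling age and of the library composition in these differences was not tested. Groups of 2 libraries are too small for a test of single libraries.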

How the results depend on the processing

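The direction of the median gene depended on scaling. With equal library totals the long-day comparison called 8703 genes, 32.3% of them higher in place of 53.1%, with a median of -0.10, and the first short-day comparison 8025, 27.4% higher in place of 55.1%; the second called 2834, 39.8% higher in place of 52.6%. The day-length difference had 53.6% positive calls in place of 45.5%, and 55.0% after quantile normalisation. PSBO1 reversed under quantile normalisation (-0.1, adjusted p = 0.36). Fits to only the groups compared called 2701 genes in long days, 764 for the day-length difference, 3091 in the first short-day table, 0 in the second (5168 at an unadjusted p under 0.05, with 2 residual degrees of freedom), 160 against Col-0 and 987 of the mutant genes read in long days. Against Col-0, a fit to long-day groups only called 13. The cause of these differences was not tested beyond the fewer libraries in each fit. Leaving out 1 library gave 5055 (without INO80-FL repeat 1) to 6662 calls in long days, 943 to 1515 for the difference, 4444 to 5624 and 1069 to 1766 in the short-day tables, 13 to 30 against Col-0 and 1678 to 1935 of the mutant genes. Of 167 named values, 75 lost their call in the 4-library fit, 34 and 21 without INO80-FL repeats 1 and 2, and 20 and 28 without ino80 repeats 1 and 2; in the other fits between 0 and 9 did.

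Between long-day INO80-FL and ino80, deviations of same-numbered libraries correlated at 0. The other groups were not checked in this way. The fit with the replicate number as a block called 7908 genes in long days, 2112 for the difference and 7066 in the first short-day table. In the second short-day table the block raised the calls from 2672 to 3513. It changed no long-day call among the named genes.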
